A study of Mus musculus with 12 samples.

Results

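Cyb5r3, the gene named in the series title, belongs to a small system of electron carriers, which was followed here through 9 genes: the reductases Cyb5r1, Cyb5r2, Cyb5r3, Cyb5r4 and Cyb5rl, the carriers Cyb5a and Cyb5b, and the cytochrome b5 domain genes Cyb5d1 and Cyb5d2. They were chosen by name, and all 9 are among the 24421 genes counted. Pancreatic islets were sequenced from mice given high-fat food over 6 weeks, in 12 libraries. The tissue of 6 libraries was taken from Il22ra1βKO mice (BKO for short), in which β cells are without the alpha 1 subunit of the interleukin-22 receptor. The other 6 libraries are from Ins2Cre mice (Cre for short), the line named for the recombinase that acts in insulin-producing cells. The labels give neither the animals' age nor the construct behind the Cre line. They do not say whether a library is 1 animal, and p-values therefore reflect variation among these libraries, which may be technical.

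Cytochrome b5 is a small haem protein anchored in membranes, and its reductases are flavoproteins that load it with electrons from NADH. Reduced cytochrome b5 hands the electrons on to fatty acid desaturases, to sterol-modifying enzymes and to some cytochromes P450 on the endoplasmic reticulum, and the outer mitochondrial membrane carries its own form. In red blood cells the same pathway keeps haemoglobin iron reduced. Mice lacking Cyb5r4 are known to lose β cells and become diabetic.

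The depth in reads assigned to genes was 10356093 to 11902217 per BKO library and 11444273 to 12397139 per Cre library. The β-cell markers fixed for the check (Ins1, Ins2, Iapp and 9 others) summed to between 98600 and 157000 CPM in BKO and between 122000 and 153000 CPM in Cre, so the defining genes of islet β cells were abundant in every library. CPM are read counts scaled to library size. Il22ra1 had 1 to 3 reads per BKO library and 1 to 5 per Cre library, too few to check the deletion in whole islets. The haemoglobin genes Hba-a1, Hba-a2, Hbb-bs and Hbb-bt were at 0 reads in every library.

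The promoters of 6 of the 9 genes were taken by symbol from the RefSeq table of GRCm38.p6. Each ran from 250 bases before to 50 bases after the annotated start. Since interleukin-22 signals through STAT3, they were searched for the STAT motif TTCNNNGAA, and also for an antioxidant response motif, TGACNNNGC, and the E-box CACGTG, on both strands. Of 32851 promoters in the table, 8.3% held the first, 12.4% the second and 7.15% the third. None of the 6 (Cyb5r1, Cyb5r2, Cyb5r4, Cyb5rl, Cyb5b, Cyb5d2) held the STAT motif within its window, Cyb5r4 held the antioxidant response motif and Cyb5rl the E-box. The promoters of Cyb5r3, Cyb5a and Cyb5d1 are not among the 6 reported here. The motif results therefore do not cover these genes, and nothing is stated on whether their promoters hold any of these motifs. A match is a description of the letters and not a bound site. Cyb5b, the member with the smallest p between genotypes, and Cyb5r4, with the antioxidant response match in capitals, are shown 5′ to 3′ (Cyb5b on the plus strand at chr8:107150411-107150710, Cyb5r4 on the plus strand at chr9:87021779-87022078).
Cyb5b: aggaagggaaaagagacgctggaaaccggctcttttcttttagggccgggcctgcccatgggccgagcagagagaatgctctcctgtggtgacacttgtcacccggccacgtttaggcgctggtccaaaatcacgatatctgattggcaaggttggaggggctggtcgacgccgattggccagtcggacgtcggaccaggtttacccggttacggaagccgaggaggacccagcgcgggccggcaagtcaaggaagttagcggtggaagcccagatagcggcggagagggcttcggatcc
Cyb5r4: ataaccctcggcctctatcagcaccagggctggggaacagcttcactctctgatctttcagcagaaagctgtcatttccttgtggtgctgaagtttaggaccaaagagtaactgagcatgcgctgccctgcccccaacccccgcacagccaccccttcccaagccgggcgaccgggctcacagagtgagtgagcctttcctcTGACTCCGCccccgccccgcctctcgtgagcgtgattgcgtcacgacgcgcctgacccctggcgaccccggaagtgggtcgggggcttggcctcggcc

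Levels spanned a wide range, with Cyb5r3 highest and Cyb5r2 near the limit of detection in both genotypes. To compare genes, CPM were divided by the exon length of each gene's coding transcripts in kilobases (RPKM). Cyb5r3 averaged 98.3 ± 5.98 RPKM in BKO and 107 ± 7.61 RPKM in Cre (SD, n = 6 each). Cyb5b, the cytochrome b5 of the outer mitochondrial membrane, followed with 69.2 ± 2.94 RPKM in BKO and 75.5 ± 3.05 RPKM in Cre. Cyb5a, the cytochrome b5 of the endoplasmic reticulum, averaged 47.7 ± 4.34 RPKM in BKO and 46.6 ± 2.77 RPKM in Cre. The next 3 were Cyb5r1 (25.7 ± 5.37 RPKM in BKO and 30.1 ± 2.88 RPKM in Cre), Cyb5r4 (19.5 ± 1.85 RPKM in BKO and 20.4 ± 1.93 RPKM in Cre) and Cyb5d1 (13.8 ± 1.08 RPKM in BKO and 14.5 ± 1.47 RPKM in Cre). Cyb5d2, which encodes the secreted haem-binding protein neuferricin, averaged 3.59 RPKM in BKO and 3.87 RPKM in Cre. The reductase-like gene Cyb5rl averaged 2.33 RPKM in BKO and 2.49 RPKM in Cre, and Cyb5r2 averaged 0.246 RPKM in BKO and 0.243 RPKM in Cre.

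The order of the 9 genes was the same in BKO and in Cre, and in each library every gene lay above the next one down. The ranges of neighbours overlapped only for Cyb5r1 and Cyb5r4 in BKO, where Cyb5r1 spanned 19.2 to 33.3 RPKM and Cyb5r4 spanned 17.4 to 22.6 RPKM. The middle of the order depends on the length used. With the exons of all annotated transcripts, which include retained introns, Cyb5a was at 14.7 RPKM in BKO and 14.3 RPKM in Cre, Cyb5d1 passed Cyb5r4, and the ranges of Cyb5a and Cyb5r1 overlapped in both genotypes. Cyb5r3 and Cyb5b remained first and second with either length.

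**Figure D1:**
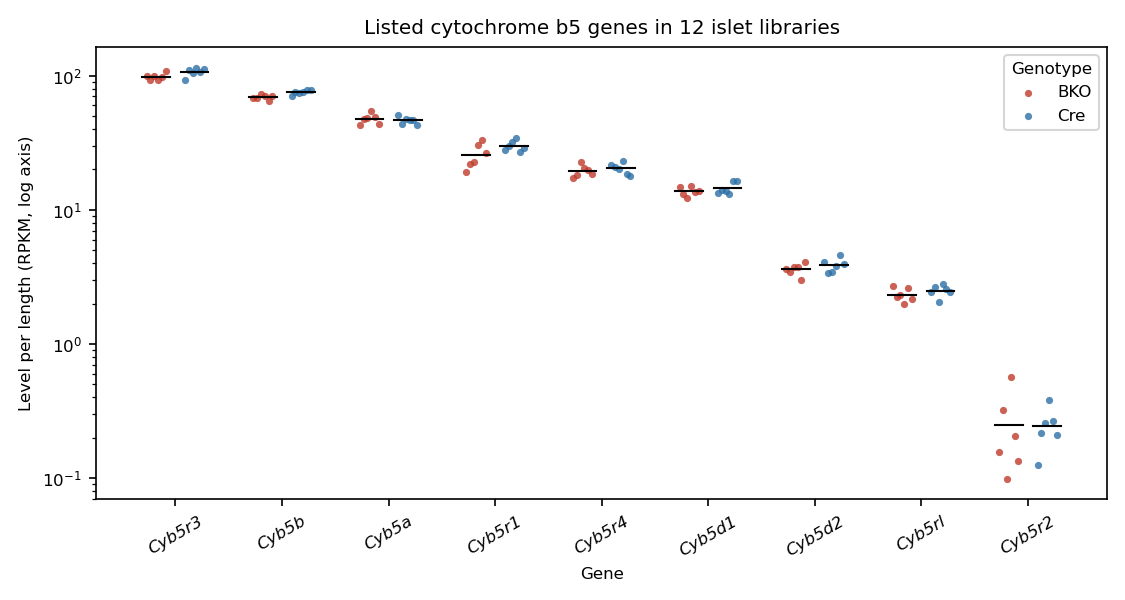
Level per length (RPKM, log axis) of the 9 genes in each library, BKO red and Cre blue, with the group mean as a bar; genes run from highest to lowest. Cyb5r3 averaged 98.3 RPKM in BKO and 107 RPKM in Cre, and Cyb5r2 averaged 0.246 RPKM in BKO and 0.243 RPKM in Cre.

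Within the reductases, Cyb5r3 made up 63.3 to 71.8% of the summed RPKM in BKO libraries and 64.4 to 69.4% in Cre libraries. Of Cyb5a plus Cyb5b, the mitochondrial form Cyb5b was 59.2% ± 2.38 in BKO and 61.8% ± 2.27 in Cre (SD, n = 6 each), and the ranges overlapped. The ratio of Cyb5r3 to Cyb5b RPKM was 1.42 ± 0.0924 in BKO and 1.41 ± 0.075 in Cre. Cyb5r3 to Cyb5r1 was more variable, at 3.97 ± 0.873 in BKO and 3.56 ± 0.3 in Cre. These shares and ratios use the coding-transcript lengths. With the exons of all annotated transcripts, BKO means were 98.3 RPKM for Cyb5r3, 68.3 for Cyb5b, 14.7 for Cyb5a and 10.6 for Cyb5r1. The shares of Cyb5r3 and Cyb5b and the ratio of Cyb5r3 to Cyb5r1 would then be higher. Counted as reads, Cyb5r3 and Cyb5b together held 78.1 to 82.2% of the reads of the 9 genes in BKO and 78.8 to 82.1% in Cre.

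Between genotypes, none of the genes passed the test over all genes. Of the 9, 8 had enough reads to be tested with edgeR, and 0 of the 8 were called at an adjusted p under 0.05, against 0 of 13583 genes in all (0%). For none of the 8 were the libraries of both genotypes fully apart, where 0.177% of all genes tested had every BKO library below every Cre library and 0.331% had every BKO library above. At an unadjusted p under 0.05, 1 of the 8 was lower (Cyb5b) and 0 were higher, where 4.66% of all genes tested were lower and 8.7% higher. A fold change below 0 was found in 7 of the 8, against 47.2% of all genes tested. The median log2 fold change of the 8 was -0.099, beside 0.0078 for all genes tested. DESeq2 also called 0 of the 8, while it called 1.64% of all genes. In bulk islets, fewer cells of a type and less RNA per cell cannot be told apart.

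Cyb5r3 was slightly lower in BKO than in Cre without passing the test. Its locus is 83153494 to 83172592 on chromosome 15, minus strand (ENSMUSG00000018042.18, mm10). BKO libraries held 396 to 466 CPM with a median of 422, and Cre libraries held 401 to 492 CPM with a median of 463. The groups overlapped: BKO-6, at 466 CPM, was the one BKO library above the Cre mean, and Cre-1, at 401 CPM, was lower than 4 of the BKO libraries. The log2 fold change was -0.12 ± 0.058 (SE), with a 95% interval of -0.24 to 0.0031 (edgeR adjusted p = 0.391; two-sided exact permutation test on log2 CPM, p = 0.0693). Cre-1 also had the highest share of reads set aside for low alignment quality, 27.3%, against at most 22.2% in the other libraries. Its part in the result was not tested, but without Cre-1 the log2 fold change was -0.17 (adjusted p = 0.132).

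Cyb5b had the smallest p of the 9 genes. The gene spans 36832 bases of the plus strand of chromosome 8, from 107150640 to 107187471 (ENSMUSG00000031924.4), and overlaps no annotated gene. BKO libraries held 280 to 316 CPM with a median of 299.8, and Cre libraries held 305 to 340 CPM with a median of 325. All 6 BKO libraries lay below the Cre mean, and 5 of the 6 Cre libraries lay above every BKO library. The log2 fold change was -0.13 ± 0.047 (SE), with a 95% interval of -0.22 to -0.026 (edgeR adjusted p = 0.262; two-sided exact permutation test, unadjusted p = 0.00649). It ranked 839 by p among the 13583 genes. Cyb5b was also the least variable member, with a coefficient of variation of 4.24% in BKO and 4.04% in Cre.

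Cyb5a, the other carrier, had a fold change near 0. Its locus is 84838704 to 84879871 on chromosome 18, plus strand (ENSMUSG00000024646.14). BKO libraries held 40.8 to 52.4 CPM with a median of 45.9, and Cre libraries held 41.2 to 48.6 CPM with a median of 44.7. The ranges overlapped almost fully, with BKO-4 the highest of all 12 libraries. The log2 fold change was 0.034 ± 0.066 (SE), with a 95% interval of -0.10 to 0.17 (edgeR adjusted p = 0.885), and it was -0.026 without BKO-4.

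**Figure D2:**
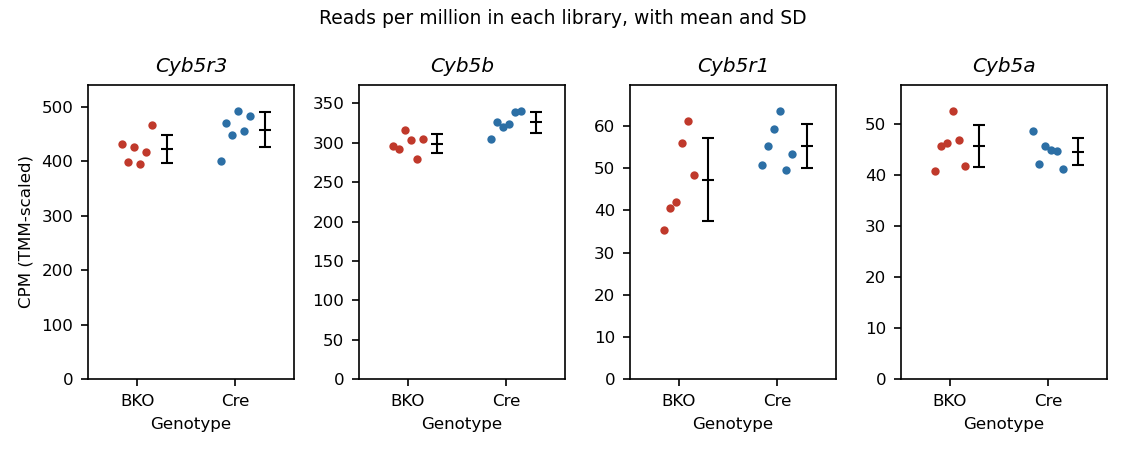
CPM of Cyb5r3, Cyb5b, Cyb5r1 and Cyb5a in each library, BKO left and Cre right, with the mean and SD of each group beside the points. For Cyb5b 5 of 6 Cre libraries lie above every BKO library, and for Cyb5r1 the BKO libraries spread from 35.3 to 61.2 CPM.

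Among the other reductases, Cyb5r1, a membrane-anchored relative of Cyb5r3, had the lowest fold change of the 8 tested genes and, in BKO, the widest spread among them. Its locus is 134405559 to 134411740 on chromosome 1, plus strand (ENSMUSG00000026456.18). The BKO libraries held 35.3, 40.5, 42.1, 48.4, 56.0 and 61.2 CPM, and the Cre libraries 49.6 to 63.5 CPM with a median of 54.3. So 4 BKO libraries lay below every Cre library while the other 2, BKO-4 and BKO-5, lay within the Cre range. The log2 fold change was -0.23 ± 0.12 (SE), with a 95% interval of -0.48 to 0.023 (edgeR adjusted p = 0.432; two-sided exact permutation test, p = 0.0974). The coefficient of variation was 20.9% in BKO and 9.55% in Cre; the difference in spread was not tested.

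Cyb5r4, which joins a cytochrome b5 domain and a reductase domain in 1 protein, held 46.1 to 59.6 CPM in BKO (median 50.6) and 47.5 to 61.4 CPM in Cre (median 54.4). Its locus is 87022014 to 87077774 on chromosome 9, plus strand. The ranges overlapped, and the log2 fold change was -0.065 ± 0.073 (SE; 95% interval -0.22 to 0.089; edgeR adjusted p = 0.773). Cyb5rl, on chromosome 4 from 107066988 to 107088268, held 6.79 to 9.31 CPM in BKO and 7.07 to 9.63 CPM in Cre. Its log2 fold change was -0.094 ± 0.11 (SE; 95% interval -0.33 to 0.14; edgeR adjusted p = 0.793). Both intervals leave room for a change of either sign.

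Cyb5r2, on chromosome 7 from 107748455 to 107758032, was the reductase that did not pass the filter on low counts. It held 3 to 18 reads per library, and 1 library was at the floor of 3 reads used here. The summed reads were 46 in BKO and 48 in Cre. Scaled to the library sizes, which were smaller in sum for BKO, the ratio of BKO to Cre was 1.03, and its exact (Clopper-Pearson) 95% interval, for counting error alone, was 0.672 to 1.58. BKO-4 held the most, 1.57 CPM, and the groups overlapped. A difference within that interval was not detectable at this depth.

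The genes with a cytochrome b5 domain outside the classical carriers differed by less than the spread between libraries. Cyb5d1, on chromosome 11 from 69391925 to 69395631, held 13.5 to 16.6 CPM in BKO and 14.4 to 18.1 CPM in Cre, with a log2 fold change of -0.076 ± 0.087 (SE; edgeR adjusted p = 0.779). Cyb5d2, on chromosome 11 from 72777232 to 72796142, held 7.56 to 10.2 CPM in BKO and 8.52 to 11.5 CPM in Cre, with a log2 fold change of -0.10 ± 0.11 (SE; edgeR adjusted p = 0.747). The 95% intervals were -0.26 to 0.11 for Cyb5d1 and -0.33 to 0.12 for Cyb5d2.

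**Figure D3:**
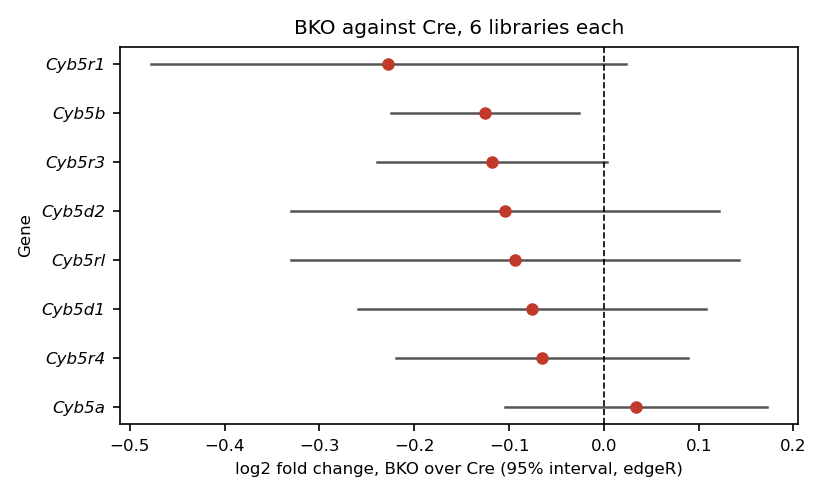
Log2 fold change of BKO over Cre for the 8 tested genes (points) with 95% intervals from edgeR (lines). The interval of Cyb5b (-0.22 to -0.026) is the one that leaves out 0, before any adjustment over genes.

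Neighbours on the other strand can affect the counts of these genes, because the sources used here do not say whether reads were counted by strand. Whether shared bases added reads to a gene or led to reads being set aside was not tested. The exons of Cyb5r3 share 243 bases (5.65% of their length) with the antisense gene Gm49463, those of Cyb5d1 share 145 bases (9.03%) with Naa38, and those of Cyb5r2 share 129 bases (4.65%) with Ppfibp2. Gm16146, antisense to Cyb5a, shares no exonic base with it. Between members, the highest identity of aligned coding bases was 67.9% (Cyb5r1 and Cyb5r2), followed by 67.1% (Cyb5r1 and Cyb5r3). Long identical stretches were absent: among the transcripts with the longest coding sequence of the 9 genes, the longest identical run between any pair was 26 bases, between Cyb5r1 and Cyb5rl, and for Cyb5r1 and Cyb5r3 it was 18 bases.

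Across libraries, the levels of Cyb5r3 and Cyb5a were negatively correlated. After subtracting the mean log2 CPM of each genotype, Pearson's r over the 12 libraries was -0.743 (permutation p = 0.0059, Benjamini-Hochberg 0.0413 over 7 relations). Spearman's rho was -0.727 (permutation p = 0.00943, Benjamini-Hochberg 0.066), so the rank form did not pass the adjustment. The permutations shuffled the deviations across genotypes and made no allowance for the subtracted means. These p-values may therefore be too small, and 0.0413 is not a clear pass. Without Cre-1 and BKO-6, the 2 libraries whose Cyb5r3 deviations lay farthest from the median, r was -0.643 (permutation p = 0.0416, unadjusted, over 10 libraries) and rho was -0.588 (permutation p = 0.0809). Without Cre-4 and BKO-4, the farthest by level, r was -0.838. The size of the correlation thus depends on which libraries are kept. Within BKO libraries alone r was -0.761 (exact permutation p = 0.0736, n = 6) and within Cre libraries alone -0.801 (exact permutation p = 0.05, n = 6). BKO-4 combined the highest Cyb5a with the lowest Cyb5r3 of the BKO libraries, and Cre-1 did so among the Cre libraries.

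Cyb5r3 and Cyb5b had an r of 0.507 (permutation p = 0.0906, Benjamini-Hochberg 0.317) and a rho of 0.531 (permutation p = 0.0774, Benjamini-Hochberg 0.271), which did not pass. Without Cre-1 and BKO-6 its r was 0.216 (permutation p = 0.549, over 10 libraries), so the pooled value rests largely on these 2 libraries, and without Cre-4 and BKO-4 it was 0.641. For the other 5 tested members, r with Cyb5r3 lay between -0.153 (Cyb5r4) and 0.326 (Cyb5rl), each with a permutation p for r of at least 0.304. Without Cre-1 and BKO-6 these r lay between -0.0997 (Cyb5r1) and 0.621 (Cyb5rl).

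**Figure D4:**
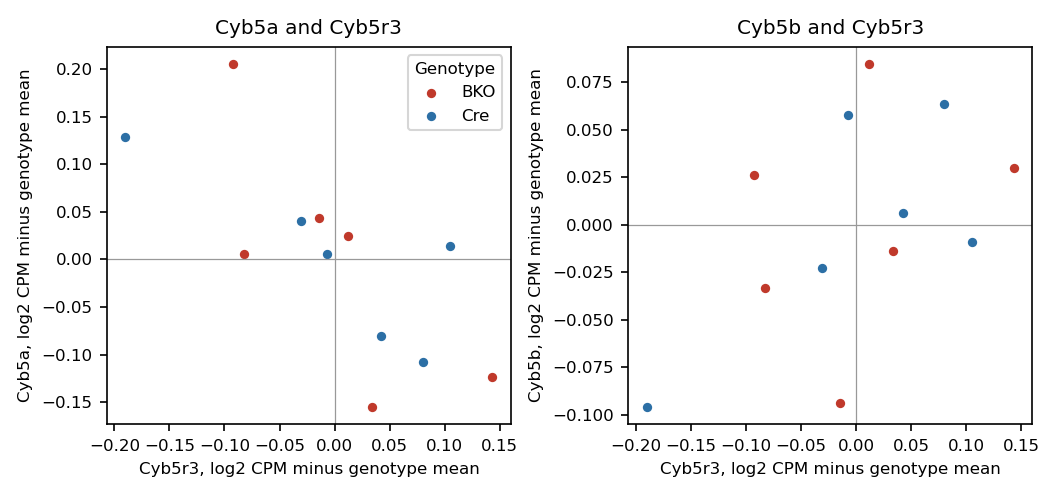
Deviation of each library from its genotype mean (log2 CPM) for Cyb5a (left) and Cyb5b (right) against Cyb5r3, BKO red and Cre blue. Pearson's r was -0.743 for Cyb5a and 0.507 for Cyb5b over the 12 libraries.

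The genes whose deviations were most like those of Cyb5r3, among 9942 genes with a mean log2 CPM of at least 3, were Cxx1c, Pfkm, Naa60, Casr and Atp6v0e2. Pfkm encodes a phosphofructokinase of glycolysis, Casr the calcium-sensing receptor and Atp6v0e2 a subunit of the vacuolar proton pump. Their r with Cyb5r3 over the 12 libraries, given as a description of genes picked for it, was between 0.876 and 0.887, with rho between 0.72 and 0.839. The r was between 0.687 (Casr) and 0.878 (Cxx1c) without Cre-1 and BKO-6 and between 0.855 and 0.935 without Cre-4 and BKO-4. Among the same genes Cyb5b ranked 732 and Cyb5a 9879 in likeness to Cyb5r3.

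Markers of several cell types leaned to one genotype, although 0 of these genes passed the test over all genes. At an unadjusted p under 0.05, 8.7% of all genes tested were higher in BKO and 4.66% lower. Higher were 11 of 12 endothelial, 7 of 9 other endocrine, 7 of 11 stellate and mesenchymal, 4 of 8 duct and 1 of 9 macrophage markers. Lower were 5 of 12 β-cell, 3 of 9 macrophage and 1 of 11 acinar markers. Endothelial markers summed to 556 to 771 CPM in BKO and 439 to 613 CPM in Cre, with 12 of 12 tested members at a positive fold change. Of the 12 β-cell markers, 11 were at a fold change below 0 (median -0.23). Acinar markers spanned 1440 to 5090 CPM in BKO and 293 to 6490 CPM in Cre, with 10 of 11 tested members positive. Duct markers spanned 1640 to 2810 CPM in BKO and 1930 to 2500 CPM in Cre (5 of 8 positive), and stellate and mesenchymal markers 173 to 260 CPM in BKO and 126 to 224 CPM in Cre (10 of 11 positive). Markers of the other endocrine cells spanned 18000 to 36000 CPM in BKO and 13600 to 21500 CPM in Cre (9 of 9 positive), and macrophage markers 128 to 156 CPM in BKO and 135 to 176 CPM in Cre (1 of 9 positive). With the endothelial score as a covariate, the log2 fold change of Cyb5r3 was -0.054 (edgeR adjusted p = 0.962) and that of Cyb5b -0.10 (edgeR adjusted p = 0.959). With the acinar score they were -0.086 (edgeR adjusted p = 0.77) and -0.10 (edgeR adjusted p = 0.613). The mean log2 CPM of the endothelial markers was 5.47 in BKO and 5.04 in Cre. For the acinar markers it was 6.51 in BKO and 5.68 in Cre. Both covariates thus overlap in part with genotype, and their part in the fold changes was not tested.

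Within genotypes, none of 21 relations between Cyb5r3, Cyb5a or Cyb5b and the mean log2 CPM of 7 marker lists passed the adjustment. Cyb5r3 and β-cell markers had an r of 0.496 (permutation p = 0.101, Benjamini-Hochberg 0.364) and a rho of 0.622 (permutation p = 0.0354, Benjamini-Hochberg 0.259), with an r of 0.563 without Cre-1 and BKO-6. The r farthest from 0 among the 21 was that of Cyb5b with duct markers, at -0.671 (permutation p = 0.0173, Benjamini-Hochberg 0.268) and a rho of -0.566 (permutation p = 0.0597, Benjamini-Hochberg 0.259). It was -0.552 without Cre-1 and BKO-5, the 2 libraries farthest from the median of the Cyb5b deviations. By rho the relation farthest from 0 was that of Cyb5a with markers of the other endocrine cells, at a rho of -0.636 (permutation p = 0.0299, Benjamini-Hochberg 0.259) and an r of -0.638 (permutation p = 0.0255, Benjamini-Hochberg 0.268), which was -0.245 without BKO-4 and BKO-1.

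Of the enzymes that draw electrons from cytochrome b5, those with enough reads to be tested did not pass the test over all genes. Scd4, Fa2h, Cyp17a1, Cyp2e1, Marc1 and Cmah were not tested, with at most 10 reads (Fa2h) in any library. Of 11 fatty acyl and sphingolipid enzymes, 9 were tested, 0 rose and 0 fell, with 6 at a negative fold change and a median of -0.094. Fads3, a sphingoid base desaturase, held 6.27 to 11.4 CPM in BKO (median 7.97) and 2.56 to 7.98 CPM in Cre (median 5.22), with all 6 BKO libraries above the Cre mean. Its log2 fold change was 0.67 ± 0.22 (SE; edgeR adjusted p = 0.222). Fads1, the delta-5 desaturase, which carries its own cytochrome b5 domain, held 37.2 to 52.3 CPM in BKO and 42.6 to 54.7 CPM in Cre (-0.19 ± 0.083, edgeR adjusted p = 0.322). Degs1, the dihydroceramide desaturase, was the most abundant of these enzymes per length. It averaged 470.4 ± 57.1 CPM in BKO against 509 ± 37 CPM in Cre (SD over 6 libraries each), a log2 fold change of -0.11 ± 0.074 (edgeR adjusted p = 0.559). Scd3 had a log2 fold change of -0.31 ± 0.22 (edgeR adjusted p = 0.596). Scd2, a stearoyl-CoA desaturase, averaged 141 ± 21.9 CPM in BKO and 147 ± 22 CPM in Cre, while Scd1 averaged 4.16 ± 1.45 CPM in BKO and 3.87 ± 1.89 CPM in Cre.

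Of 6 sterol and P450 genes, 4 were tested and 0 rose or fell. Cyp51, the lanosterol demethylase, held 71.2 to 76.3 CPM in BKO and 74.6 to 84.6 CPM in Cre, with all 6 BKO libraries below the Cre mean (log2 fold change -0.089 ± 0.046, edgeR adjusted p = 0.432). Msmo1 and Sc5d, the sterol oxidases that take electrons from cytochrome b5, were at -0.055 ± 0.065 (edgeR adjusted p = 0.793) and 0.041 ± 0.060 (edgeR adjusted p = 0.842). Por, the NADPH-dependent reductase of the P450 enzymes, was at -0.012 ± 0.073 (edgeR adjusted p = 0.97). Marc2, the mitochondrial amidoxime reductase that works with Cyb5b and Cyb5r3, was the tested member of its list of 3 and averaged 70.9 ± 5.38 CPM in BKO and 71.3 ± 4.44 CPM in Cre (-0.0078 ± 0.060, edgeR adjusted p = 0.979). Its partner gene Marc1 had at most 2 reads in any library.

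Other proteins with a cytochrome b5-like fold had fold changes near 0, with a median of 0.019 over the 4 tested. These were Pgrmc1 (0.021 ± 0.053, edgeR adjusted p = 0.925), Pgrmc2 (-0.050 ± 0.069, edgeR adjusted p = 0.834), Nenf (0.039 ± 0.056, edgeR adjusted p = 0.839) and the sulfite oxidase Suox (0.017 ± 0.070, edgeR adjusted p = 0.956). The list of quinone and other NAD(P)H reductases, which also held the channel gene Vdac1, had 7 genes, all tested. Of these, 0 rose and 0 fell, with a median of -0.036. Nqo1, the quinone reductase, had the smallest p. Its level was 15.5 ± 3.68 CPM in BKO against 13.2 ± 1.28 CPM in Cre (SD over 6 libraries each), a log2 fold change of 0.22 ± 0.13 (edgeR adjusted p = 0.505). Vdac1, the outer mitochondrial membrane channel, was at -0.095 ± 0.066, Aifm2, a coenzyme Q reductase, at -0.14 ± 0.10, and Nqo2 at -0.10 ± 0.10, with edgeR adjusted p-values between 0.587 and 0.731.

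Haem is the cofactor of cytochrome b5, and of its 8 synthesis genes, all tested, 0 rose and 0 fell. The median log2 fold change was -0.047, with 6 negative. Cpox, coproporphyrinogen oxidase, held 43.2 to 59.9 CPM in BKO (median 49.1) and 51.2 to 65.5 CPM in Cre (median 58.9), and the Cre mean was above 5 of 6 BKO libraries (log2 fold change -0.22 ± 0.080, edgeR adjusted p = 0.243). Urod was at -0.069 ± 0.056 (edgeR adjusted p = 0.665), the first enzyme of the pathway, Alas1, at -0.089 ± 0.080 (edgeR adjusted p = 0.699) and Alad at 0.079 ± 0.083 (edgeR adjusted p = 0.753).

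**Figure D5:**
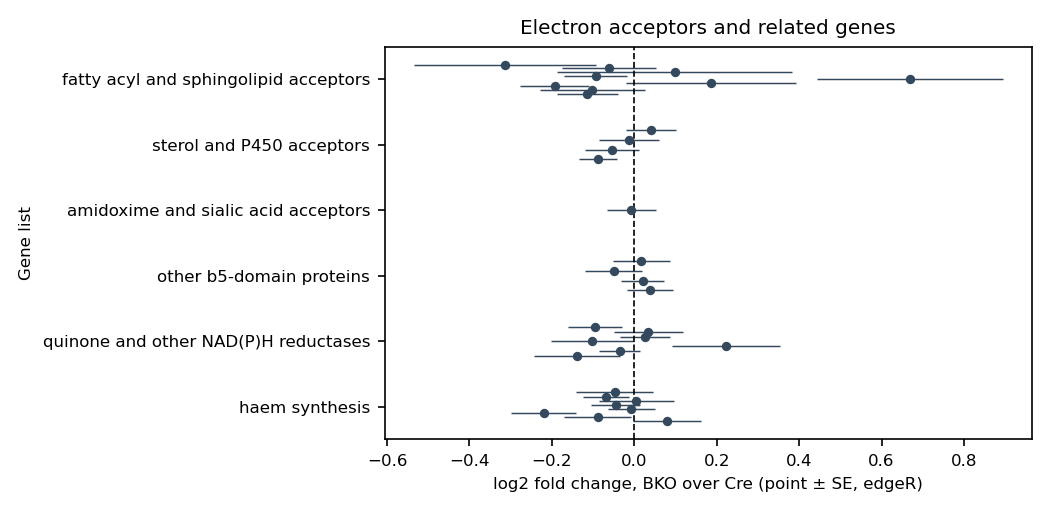
Log2 fold change of BKO over Cre (point) with its SE (line) for the tested genes of 6 lists around cytochrome b5. Fads3, at 0.67 ± 0.22, stands farthest from 0 and did not pass the test over all genes.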

How the data were processed

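Total RNA of islets was sequenced in 6 BKO and 6 Cre libraries, with paired-end reads from a NovaSeq per the labels' protocols. Alignment used HISAT2 2.0.5 and counting HTSeq, on mm10, per the submitters' processing notes; the sources used here do not give the annotation or strand setting. Each deposited file holds 1 library's unscaled read counts by gene symbol. The summary lines of the counter name no gene and were left out of library sizes and tests. Of the counts summed over all lines of a library, 8.84 to 11.2% were no feature and 16.7 to 27.3% low alignment quality. The series-wide table was not used.

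Genes were filtered with filterByExpr (13583 of 24421 kept), scaled by TMM and tested with edgeR 4.0.16 (R 4.3.3; glmQLFit with robust shrinkage, glmQLFTest, Benjamini-Hochberg over all genes at 0.05). CPM use TMM-scaled library sizes, and logs a prior count of 1. RPKM use exon lengths of GENCODE M21 (GRCm38, which is mm10). Exact permutation tests use all 924 splits of 6 against 6, and those of pairings 100000 permutations (all pairings for 6 libraries). The 100000 permutations shuffle deviations across genotypes without allowance for the subtracted genotype means, so their p-values may be too small. The 95% intervals of the tested genes come from the edgeR fit and include variation among libraries. The interval of Cyb5r2 and the floor of 3 reads (0.238 to 0.284 CPM) cover counting error only. No pair of libraries was a repeat of the same library (the chi-square of their counts over its degrees of freedom was 5.07 to 30.2).

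Alternatives were other scalings (RLE, upper quartile, TMM without acinar genes), other filters, DESeq2 1.42.0, limma-voom (limma 3.58.1), fits with the replicate number as a block or without robust shrinkage, a marker score as a covariate, and each library left out. The steps were tested on simulated data. Named genes are the 9 listed genes, up to 4 members of each pathway list with the smallest p, and the 5 genes most like Cyb5r3; Scd1, Scd2 and Marc1 were added after their values were seen. The listed genes, pathway lists and markers were chosen with earlier results of these data known.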

Additional observations from a re-analysis of the deposited data

How the results depend on the processing

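The 8 tested genes had 0 calls under each of 23 alternatives, as did Cyb5r2 in the one that tested it (no count filter), and for the 8 the adjusted p lay above 0.05, the lowest being that of Cyb5b with DESeq2 (0.0741). The log2 fold change of Cyb5r3 stayed negative, from -0.13 (no count filter) to -0.054 (endothelial score as a covariate) and from -0.17 to -0.11 with each library left out. That of Cyb5b lay between -0.14 and -0.10, and between -0.16 and -0.11. With each library left out, Cyb5r1 lay between -0.33 (without BKO-5) and -0.16 (without BKO-1), Cyb5r4 between -0.11 (without BKO-3) and -0.033 (without Cre-4), Cyb5rl between -0.16 (without Cre-3) and -0.066 (without BKO-4), Cyb5d1 between -0.12 (without BKO-4) and -0.041 (without Cre-5) and Cyb5d2 between -0.16 (without BKO-6) and -0.050 (without Cre-5). Directions turned for 2 genes near 0: Cyb5r4 was at 0.032 with the endothelial score, and Cyb5a at -0.013 with the endothelial score, -0.0068 with the acinar score and -0.026 without BKO-4 (0.058 at most with another library left out); the cause was not tested. Over all genes, where edgeR called 0 (1815 at an unadjusted p under 0.05), DESeq2 called 223 and limma-voom 0. With 1 library left out edgeR called between 0 and 262 genes, namely 262 without BKO-4, 110 without Cre-5, 6 without Cre-1 and 5 without BKO-3. With the replicate number as a block edgeR called 364 genes. The labels give no source for the numbers. The deviations of same-numbered libraries had correlations between 0.19 and 0.26 in 4 of 6 pairs and of -0.0679 and -0.0433 in the other two, and 7 of 12 libraries correlated best with their own number, which is a hint from the data and not from the design. The numbers were not taken as pairs, and the blocked log2 fold change of Cyb5r3 was -0.12 (adjusted p = 0.292). At this depth, Cyb5r2 (94 reads in all) could not be compared within the interval given for it.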
